A study of Mus musculus with 4 samples.

Results

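DNA replication and S phase genes were examined as a group of 40 genes in double-positive thymocytes of wild-type mice and of mice with a conditional Gfi1 allele. The members were named by their role in starting, carrying out or supplying DNA synthesis, with earlier results of these data known. Counts over the members are therefore descriptions, and no list test was run. Each gene was read from the brightest probe set that the array annotation gives to it alone, and 39 of the 40 genes had such a probe set, out of 17097 genes in all. The missing member is Chaf1a, which was not analysed here. The 39 genes were covered by 68 probe sets.

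Chromosomal DNA is copied only during S phase of the cell cycle. In G1, the origin recognition complex with Cdc6 and Cdt1 loads the ring-shaped MCM helicase onto origins, and cyclin E with its kinase, together with Cdc45 and the GINS complex, then switches the helicase on. The genes for these proteins, for the polymerases and for the enzymes that make deoxynucleotides share transcriptional control by E2F factors, which are held back by pocket proteins in resting cells. In the thymus, cells divide rapidly after the pre-T cell receptor has been made and while they become double-positive, and most double-positive thymocytes are small cells that no longer divide.

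The arrays held RNA of CD4+CD8+ double-positive thymocytes sorted by flow cytometry from C57BL/6 mice, with 2 arrays from WT mice and 2 from hCD2-iCre x Gfi1fl/fl mice. In the latter, the Cre recombinase is under control of human CD2 sequences, which are active in T lineage cells, and acts on floxed Gfi1, a gene for a zinc-finger repressor of blood and lymphoid cells. The WT mice are not described as carrying the recombinase, no treatment was given, and the age of the mice, the number of animals per sample and whether replicates were separate animals are not given in the sources used here. P-values therefore measure only the spread between these arrays, which may be technical, and the number of arrays limits the precision. The arrays labelled hCD2-iCre x Gfi1fl/fl are called Gfi1-floxed, after their label.

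All values are log2 RMA signals, a background-corrected and normalised probe set summary in which a difference of 1 is a 2-fold difference in signal. Array medians ranged from 3.53 to 3.55. Gfi1 itself gave 10.17 and 10.08 on the WT arrays and 11.47 and 11.32 on the Gfi1-floxed arrays, so its probe set was higher under the label of the deleted allele (limma, adjusted p = 0.00781). Where this probe set lies relative to the floxed part is not given in the sources used here, so it does not check the labels, and every direction between labels holds for the arrays as labelled. Of 21 double-positive thymocyte markers, 18 were measured and all 18 lay above the upper quartile of all signals (6.55). Cd8a lay between 12.5 and 12.8 and Rag1 between 12.5 and 12.7 on the 4 arrays. Markers of other cells were mostly dim: none of 10 myeloid and dendritic markers, 1 of 7 B cell markers, 2 of 10 gamma-delta, NK and innate lymphoid markers, 2 of 10 thymic epithelial and stromal markers and 3 of 8 erythroid markers had a mean above that quartile. In such bulk RNA, fewer cells in S phase and less replication gene RNA per cell cannot be told apart.

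All 39 measured members were higher on Gfi1-floxed replicate 2 than on Gfi1-floxed replicate 1, against 43.2% of all genes. The median difference was 0.94, a 1.92-fold higher signal, and 17 of 39 members (43.6%) were at least 2-fold higher, against a background of 1.54% of all genes. The WT replicates showed no such gap: the median difference was -0.08, no member was at least 2-fold higher on WT replicate 2 (background 0.667%), and 1 member, Gins2, was at least 2-fold lower (background 0.181%). Between the labels 0 of 39 members was called (limma, adjusted p at most 0.05; background 1.11%), and 0 had an unadjusted p under 0.05. Each replicate comparison sets 1 array against 1, so it has no test. Over all genes, the middle 50% of replicate differences lay between -0.20 and 0.12 within the Gfi1-floxed label. Within the WT label it lay between -0.20 and 0.11. Of the members, 32 of 39 had a mean above the upper quartile of all signals, against 6032 of all 17097 genes. No background matched for signal was taken.

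**Figure D1:**
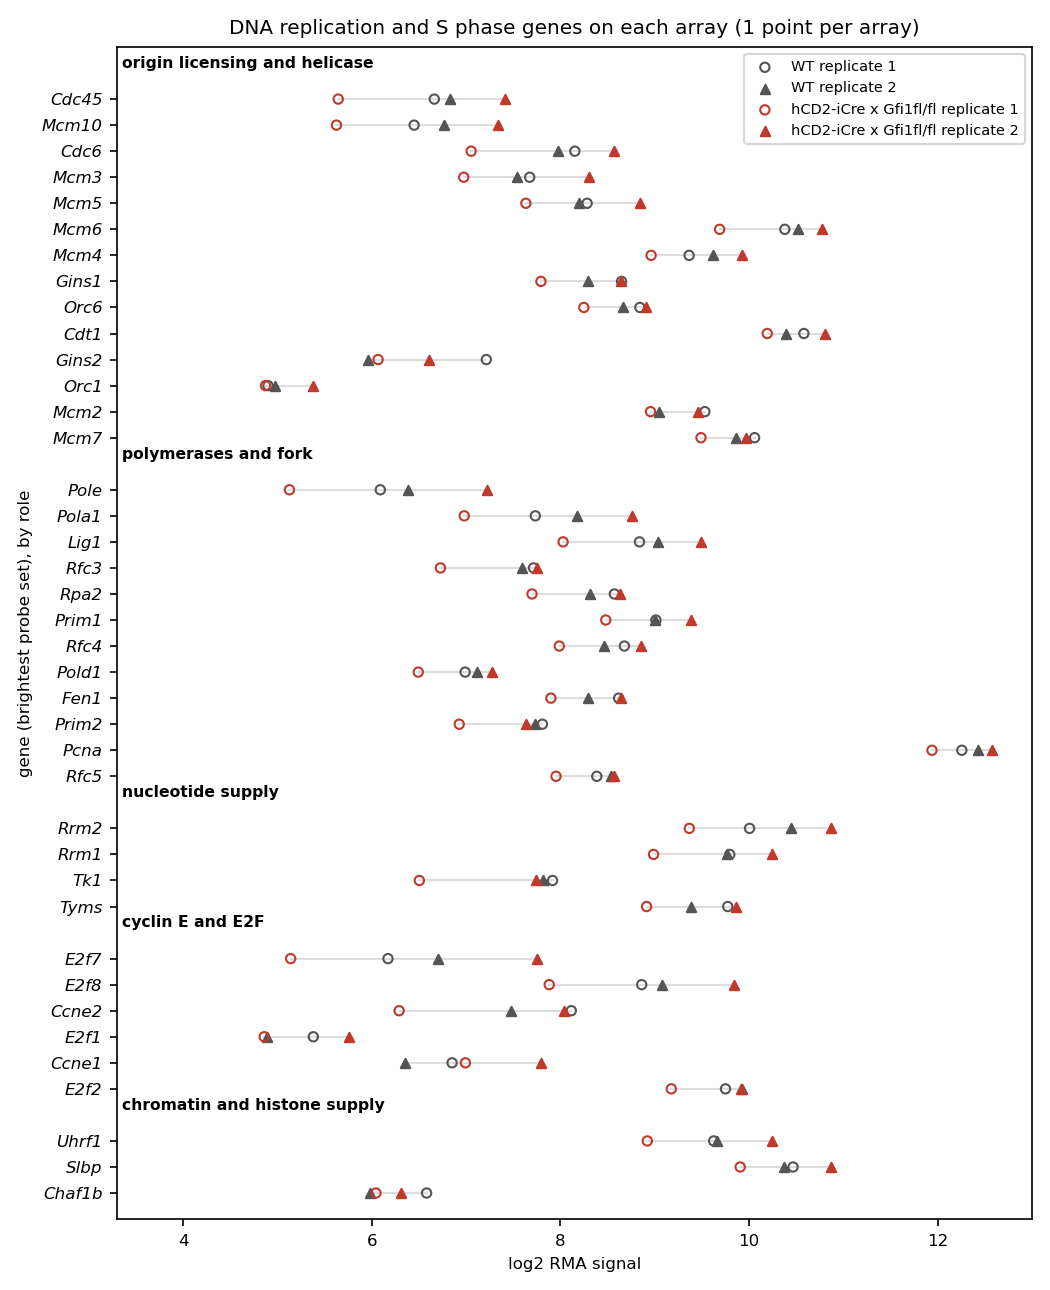
Log2 RMA signal (horizontal axis) of the 39 measured members on each of the 4 arrays, with 1 point per array and genes grouped by role. Gfi1-floxed replicate 1 (open red circle) was the lowest of the 4 arrays for 36 genes, against 3874 of all 17097 genes. Gfi1-floxed replicate 2 (filled red triangle) was the highest for 30, against 3639 of all 17097 genes.

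E2F sites in the promoters of members are shown here because they are the sequence feature by which many of these genes are known to be controlled together. Promoter windows from RefSeq (build GRCm38.p6) were found for 34 of the 40 genes, as 40 windows since some genes have several starts. The 250 bases before each start were searched on both strands for the E2F words TTTCCCGC, TTTCGCGC, TTTGCCGC and TTTGGCGC, with overlapping matches joined into 1 site. A site was present in 9 of the 40 windows (22.5%), against 1.86% of all 32851 windows. Replication genes outside the member list had a site in 8 of 46 windows (17.4%). The windows below belong to the 6 members with a site that had the largest difference between the Gfi1-floxed replicates. Each is written 5′ to 3′ on the strand of the gene, with E2F words, joined where they overlap, in capitals.
E2f7, chr10:110745211-110745278, plus strand: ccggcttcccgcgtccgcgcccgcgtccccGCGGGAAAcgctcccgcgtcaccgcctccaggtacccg
Pola1, chrX:93632256-93632323, minus strand: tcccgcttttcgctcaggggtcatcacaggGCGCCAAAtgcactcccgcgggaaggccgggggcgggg
Cdc6, chr11:98907983-98908050, plus strand: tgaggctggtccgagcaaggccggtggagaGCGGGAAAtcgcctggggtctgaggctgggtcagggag
Uhrf1, chr17:56304098-56304165, plus strand: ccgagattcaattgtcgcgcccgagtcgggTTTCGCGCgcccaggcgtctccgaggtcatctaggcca
Mcm5, chr8:75109326-75109397, plus strand: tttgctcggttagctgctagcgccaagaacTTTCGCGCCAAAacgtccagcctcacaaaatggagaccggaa
Mcm6, chr1:128359715-128359845, minus strand: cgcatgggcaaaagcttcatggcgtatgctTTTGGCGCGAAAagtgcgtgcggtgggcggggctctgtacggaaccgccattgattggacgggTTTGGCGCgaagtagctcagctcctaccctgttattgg
The first base of the site lay 198 bases before the start in E2f7, 138 in Pola1 and Cdc6, 185 in Uhrf1 and 153 in Mcm5. Mcm6, which had 2 sites, carried them 110 and 47 bases before the start. The other members with a site were Rfc3, Orc1 and Mcm7.

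Of 33 windows of G2 and mitosis genes, 1 (3.03%) held an E2F word and 13 (39.4%) held the CHR word TTTGAA, an element of genes expressed late in the cycle, against 12.5% of the members' windows and 16.0% of all windows. The CCAAT box was present in 62.5% of the members' windows, 81.8% of the G2 and mitosis windows and 33.8% of all windows. In the windows of replication genes outside the member list, the CCAAT box was present in 45.7% and the CHR word in 15.2%. The CCAAT, CHR and E2F words do not contain each other, and each was counted on both strands. Among the 33 measured members with a window, the 9 with an E2F word had a median difference of 1.21 between the Gfi1-floxed replicates and the 24 without had 0.90, with ranges of 0.48 to 2.61 and 0.26 to 1.96 that overlap. The 21 members with a CCAAT box had a median of 1.09 and the 12 without had 0.84, so a larger median was not particular to the E2F word. For the CHR word, the 5 with a match had 0.75 and the 28 without had 0.96. These splits were not tested. A match is a description of letters, and its absence says only that these letters are not in this window.

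**Figure D2:**
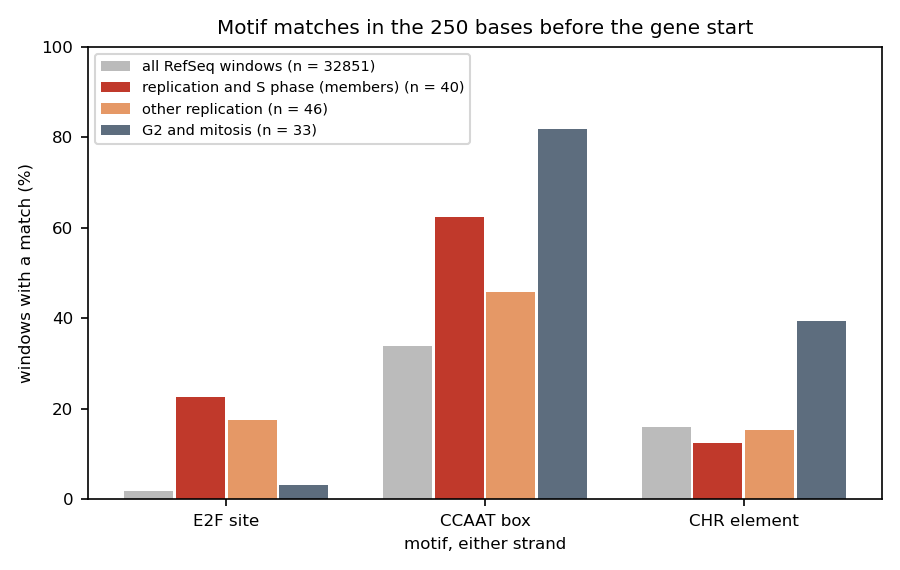
Share of promoter windows (percent, from 0) with at least 1 match on either strand to an E2F word, the CCAAT box or the CHR word, in all RefSeq windows and in the windows of 3 gene lists. E2F words were found in 22.5% of the members' windows, 17.4% of those of other replication genes and 3.03% of those of G2 and mitosis genes.

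Among the genes of origin licensing and the helicase, all 14 were higher on Gfi1-floxed replicate 2, with a median difference of 0.91, and 6 were at least 2-fold higher. Cdc45, the protein that joins the MCM ring to form the active helicase, gave 6.66 and 6.83 on the WT arrays and 5.64 and 7.41 on Gfi1-floxed replicates 1 and 2, a 3.40-fold difference within that label. The WT arrays lay close together and the Gfi1-floxed arrays on either side of them. Mcm10, a factor of helicase activation, gave 6.45 and 6.76 on the WT arrays against 5.62 and 7.33 (3.27-fold). Cdc6, the loader ATPase, gave 8.15 and 7.97 against 7.05 and 8.56 (2.85-fold). Of the ring subunits, Mcm3 gave 7.67 and 7.54 against 6.97 and 8.30 (2.51-fold), Mcm5 8.28 and 8.20 against 7.63 and 8.84 (2.31-fold) and Mcm6 10.38 and 10.51 against 9.69 and 10.78 (2.13-fold). The same order of arrays, with the WT arrays between the Gfi1-floxed arrays, was seen for these 6 genes.

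The 6 subunits of one ring did not differ equally. Mcm4 differed by 0.96, Mcm2 by 0.50 and Mcm7 by 0.48 between the Gfi1-floxed replicates, less than Mcm3, Mcm5 and Mcm6, which differed by 1.33, 1.21 and 1.09. Mcm7 gave the smallest difference of the group, with 10.06 and 9.86 on the WT arrays and 9.49 and 9.97 on the Gfi1-floxed arrays. Its other probe set, which also read above the upper quartile, differed by 0.46. The licensing factors Cdt1, Orc6 and Orc1 differed by 0.62, 0.66 and 0.50. Gins1 and Gins2 encode subunits of the same GINS complex, and they differed by 0.85 and 0.54. In 10 of the 14 genes Gfi1-floxed replicate 1 was the lowest and replicate 2 the highest array, and Mcm2, Mcm7, Gins1 and Gins2 departed from this order. Gins2 gave 7.21 and 5.96 on the WT arrays and 6.07 and 6.60 on the Gfi1-floxed arrays, so WT replicate 1 was the highest array by a wide margin.

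For the polymerases and the replication fork, all 12 members were higher on Gfi1-floxed replicate 2, with a median difference of 0.89, and 4 were at least 2-fold higher. Pole, the catalytic subunit of the leading-strand polymerase epsilon, gave 6.09 and 6.38 on the WT arrays and 5.13 and 7.22 on the Gfi1-floxed arrays, a 4.27-fold difference within the label. Pola1, the catalytic subunit of the polymerase that primes synthesis, gave 7.73 and 8.17 against 6.98 and 8.75 (3.42-fold). Lig1, the ligase that joins Okazaki fragments, gave 8.84 and 9.04 against 8.03 and 9.49 (2.75-fold). In these 3 genes the Gfi1-floxed arrays again lay on either side of both WT arrays. Rfc3, a subunit of the clamp loader, gave 7.71 and 7.60 against 6.73 and 7.75 (2.03-fold), so replicate 2 there was level with WT and replicate 1 was the low array.

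Subunits of shared complexes were again unequal. The clamp loader subunits Rfc4 and Rfc5 differed by 0.87 and 0.62 where Rfc3 differed by 1.02. Prim1 and Prim2, the primase subunits that work with Pola1, differed by 0.90 and 0.71. The single-stranded DNA binding subunit Rpa2, the flap nuclease Fen1 and the lagging-strand polymerase subunit Pold1 differed by 0.93, 0.75 and 0.78. Rfc5 had the smallest difference in the group, with 8.39 and 8.53 on the WT arrays and 7.95 and 8.57 on the Gfi1-floxed arrays. Pcna, the sliding clamp, had the brightest signal of any member at 12.26 and 12.43 on the WT arrays and 11.94 and 12.57 on the Gfi1-floxed arrays, a 1.55-fold difference. Signals of different probe sets are not comparable as transcript amounts.

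Of the 4 nucleotide supply genes, 3 were at least 2-fold higher on Gfi1-floxed replicate 2. Rrm2, the S phase subunit of ribonucleotide reductase, gave 10.01 and 10.45 on the WT arrays and 9.37 and 10.87 on the Gfi1-floxed arrays (2.84-fold). Its partner Rrm1 gave 9.80 and 9.77 against 8.99 and 10.24 (2.38-fold). Tk1, thymidine kinase, gave 7.92 and 7.81 against 6.50 and 7.74 (2.36-fold), with both Gfi1-floxed arrays below both WT arrays. Tyms, thymidylate synthase, gave 9.77 and 9.38 against 8.91 and 9.86 (1.92-fold). For Rrm1 and Rrm2 the Gfi1-floxed arrays were the lowest and the highest, while for Tk1 only replicate 1 stood away from the other arrays.

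Of the 6 cyclin E and E2F genes, all were higher on Gfi1-floxed replicate 2, with a median difference of 1.33, and 3 were at least 2-fold higher. E2f7, an atypical E2F that represses other E2F targets, gave 6.17 and 6.70 on the WT arrays and 5.14 and 7.75 on the Gfi1-floxed arrays, a 6.10-fold difference and the largest of the 39. E2f8, its close relative, gave 8.86 and 9.08 against 7.88 and 9.84 (3.88-fold). The activating factors E2f1 and E2f2 differed less, by 0.90 and 0.74. E2f1 gave 5.38 and 4.89 on the WT arrays and 4.86 and 5.76 on the Gfi1-floxed arrays, and E2f2 gave 9.75 and 9.92 against 9.18 and 9.91. Ccne2, one of the cyclin E genes, gave 8.11 and 7.47 against 6.29 and 8.04 (3.36-fold), with Gfi1-floxed replicate 1 far below the other arrays. Ccne1 differed by 0.81 within the Gfi1-floxed label, at 6.99 and 7.80, and both arrays lay above the WT values of 6.85 and 6.35.

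In the chromatin and histone group, Uhrf1, which guides maintenance of DNA methylation after replication, gave 9.62 and 9.66 on the WT arrays and 8.92 and 10.24 on the Gfi1-floxed arrays (2.50-fold). Slbp, which binds the stem-loop of histone mRNA, gave 10.47 and 10.37 against 9.91 and 10.87 (1.96-fold). Chaf1b, a subunit of the histone chaperone CAF-1, differed least of all members, with 6.58 and 5.98 on the WT arrays and 6.04 and 6.31 on the Gfi1-floxed arrays (1.20-fold). Its Gfi1-floxed arrays lay within the range of the WT arrays.

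Counted over the group, Gfi1-floxed replicate 1 was the lowest and replicate 2 the highest of the 4 arrays for 29 of 39 members (74.4%), against 7.86% of all genes. This order was not particular to the members: it held for 34 of 36 G2 and mitosis genes (94.4%). It also held for 21 of 42 replication genes outside the member list (50%). Among the members, the exceptions at the low end were Gins2, Ccne1 and Chaf1b. Further probe sets gave the same direction where they were bright: all 13 unused probe sets of members with a mean above the upper quartile were higher on Gfi1-floxed replicate 2, by 0.46 to 2.10. Another probe set of Rrm2 gave the difference of 2.10. Of the 9 unused probe sets at or below the median of all signals, 4 were higher, with a median difference of -0.03. At a limit of 1.5-fold in place of 2-fold, 34 of 39 members were higher on Gfi1-floxed replicate 2, against 3.54% of all genes.

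Within the WT label the members went both ways, 16 higher (41.0%) and 23 lower on replicate 2, where 41.7% of all genes were higher. The lower ones were led by Gins2 (-1.26), Ccne2 (-0.64), Chaf1b (-0.60), Ccne1 (-0.50), E2f1 (-0.49) and Mcm2 (-0.48). The higher ones were led by E2f7 (0.53), Rrm2 (0.44), Pola1 (0.44), Mcm10 (0.31) and Pole (0.29). Gins2, Ccne2 and Chaf1b were at least 1.5-fold lower on WT replicate 2, and 0 members were 1.5-fold higher. The share of all genes at this limit was not taken within the WT label, so nothing is read from these counts. Every member had a more positive difference within the Gfi1-floxed label than within the WT label, against 8771 of all 17097 genes. Across the 39 members the replicate differences of the labels correlated with r = 0.53, given as a description over genes that share the same 4 arrays and 1 normalisation. E2f7, Pole, Pola1 and Rrm2 were high on both axes and Gins2 and Chaf1b low on both, while Ccne2 combined a wide gap in the Gfi1-floxed label with a lower value on WT replicate 2.

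**Figure D3:**
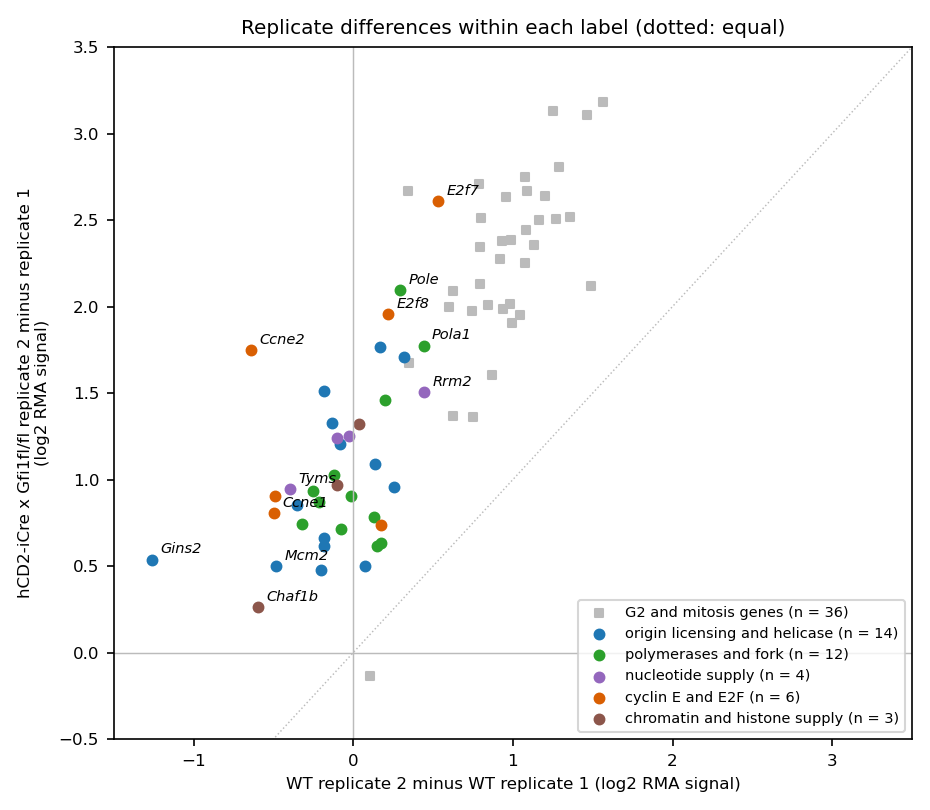
Difference between replicate 2 and replicate 1 in log2 RMA signal within the WT label (horizontal axis) and within the Gfi1-floxed label (vertical axis), with 1 point per gene, members coloured by role and 36 G2 and mitosis genes in grey squares. All members lie above the dotted line of equal differences, between -1.26 and 0.53 on the horizontal axis, while the G2 and mitosis genes lie to the right of 0.

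G2 and mitosis genes had a median difference of 0.97 between the WT replicates, with 36 of 36 higher on replicate 2, and of 2.35 between the Gfi1-floxed replicates, with 35 of 36 higher by at least 2-fold. Cenpf, a kinetochore protein, gave 7.10 and 8.66 on the WT arrays and 6.36 and 9.54 on the Gfi1-floxed arrays. Ccna2, the cyclin of S phase and G2, is not in this list and is counted below with genes of E2F and pocket protein control. It gave 9.66 and 10.51 against 8.61 and 10.91. WT replicate 2 thus stood above WT replicate 1 for mitotic genes and level with it for replication genes, while on the Gfi1-floxed arrays both lists were higher on replicate 2. These list differences rest on 1 array against 1 and were not tested.

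Replication genes outside the member list, taken from a list of 48 of which 42 were measured, had a median difference of 0.65 within the Gfi1-floxed label and 0.04 within the WT label. Of these, 34 were higher on Gfi1-floxed replicate 2 and 13 at least 2-fold higher. Chtf18, a clamp loader subunit of sister chromatid cohesion, differed by 2.12, Clspn, the checkpoint adaptor at the fork, by 1.79, Ticrr, a helicase activation factor, by 1.72 and Dna2, a nuclease of Okazaki fragment processing, by 1.60. The 8 that were not higher were Rrm2b, Rnaseh2c, Orc5, Rnaseh2a, Mcm9, Rpa3, Pole4 and Rfc2, between -0.59 and -0.01. Between the labels, limma called 0 of the 42, and 0 had an unadjusted p under 0.05.

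Of 27 measured genes of E2F, pocket protein and D cyclin control, the median difference within the Gfi1-floxed label was 0.24 and 3 were at least 2-fold higher on replicate 2: Ccna2, Ccnd2 and Mybl2. Ccnd2, a D cyclin that starts the passage from G1, gave 4.005 and 3.55 on the WT arrays and 5.25 and 6.94 on the Gfi1-floxed arrays, with an adjusted p of 0.136 between labels (limma). The retinoblastoma relative Rbl2, a pocket protein of resting cells, differed by -0.40 between the Gfi1-floxed replicates. Limma called 0 of the 27, and 4 had an unadjusted p under 0.05 (Ccnd2, Cdk4, Cdkn2d and Tfdp2).

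**Figure D4:**
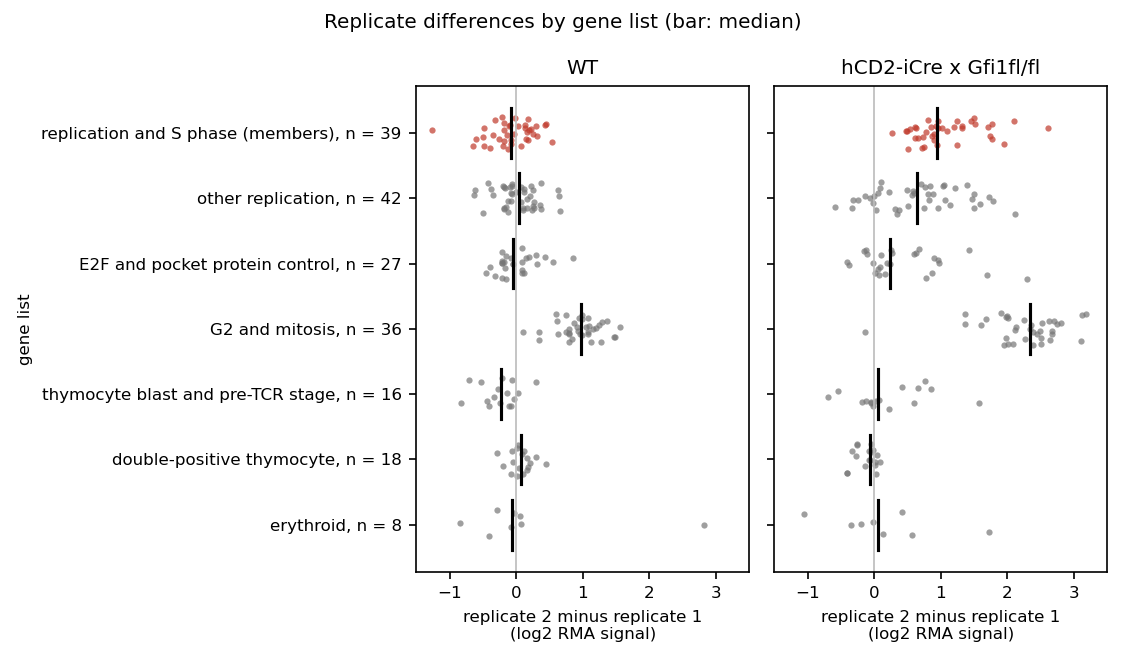
Difference between replicate 2 and replicate 1 in log2 RMA signal for each gene of 7 lists (1 point per gene, black bar at the median), within the WT label on the left and within the Gfi1-floxed label on the right. The members have medians of -0.08 and 0.94, and G2 and mitosis genes 0.97 and 2.35.

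The comparison of the labels asks what the Gfi1 genotype changed. Of all genes, 8.29% had an unadjusted p under 0.05, a level that 0 of 39 members reached. The median difference, Gfi1-floxed minus WT, was -0.15 over the members and -0.02 over all genes. The standard error of a member's difference had a median of 0.32, against 0.16 for all genes, and the residual SD a median of 0.51 against 0.14. Most of that spread lay between the Gfi1-floxed arrays, whose difference was wider than that of the WT arrays for 37 of 39 members. The share of all genes with such a wider difference was not taken.

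Ccne1 had the largest positive difference, 0.79 ± 0.34 (SE; limma, adjusted p = 0.607), with means of 6.60 ± 0.35 and 7.40 ± 0.57 (SD, n = 2 each) for WT and Gfi1-floxed arrays and a 95% interval of -0.003 to 1.59. It was the only member with both Gfi1-floxed arrays above both WT arrays, an order found in 16.0% of all genes. Orc1 and E2f1 followed, at 0.19 and 0.17. Orc1 gave 4.90 and 4.97 on the WT arrays and 4.87 and 5.37 on the Gfi1-floxed arrays, which overlap. Tk1 had the largest negative difference, -0.74 ± 0.39 (SE; limma, adjusted p = 0.769), with means of 7.86 ± 0.07 and 7.12 ± 0.88 (SD, n = 2 each) and an interval of -1.67 to 0.19. Ccne2 differed by -0.63 ± 0.54 (interval -1.91 to 0.65) and Prim2 by -0.49 ± 0.28 (interval -1.16 to 0.19). Prim2 gave 7.81 and 7.73 on the WT arrays and 6.93 and 7.64 on the Gfi1-floxed arrays. Tk1 and Prim2 were the only members with both Gfi1-floxed arrays below both WT arrays, an order found in 18.5% of all genes. E2f7, with the widest gap between Gfi1-floxed replicates, differed by 0.01 ± 0.75 (SE) between labels. Such intervals leave room for differences of more than 2-fold in either direction for E2f7.

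Setting replicates of the same number side by side gave opposite directions, which restates the gap between the Gfi1-floxed arrays. The labels do not say that a number pairs arrays. Gfi1-floxed replicate 1 lay below WT replicate 1 for 38 of 39 members (97.4%; 55.1% of all genes), with a median of -0.70. Gfi1-floxed replicate 2 lay above WT replicate 2 for 36 of 39 (92.3%; 48.6% of all genes), with a median of 0.41. When Gfi1-floxed replicate 1 was left out, the median label difference was 0.33 and 1 of 39 members, E2f7, was called, at 1.31 (limma, adjusted p = 0.0346), where the same fit called 475 of all genes (2.78%). When Gfi1-floxed replicate 2 was left out, the median was -0.66 and 4 of 39 members were called, where the same fit called 467 of all genes (2.73%). The 4 were Ccne2 at -1.51, Tk1 at -1.36, E2f8 at -1.09 and Rrm2 at -0.86. With all 4 arrays, 190 genes were called, so more genes were called in all when either Gfi1-floxed array was left out. These fits hold 1 Gfi1-floxed array against 2 WT arrays, so a gene's own residual spread comes from the WT pair alone. They assume that the lone array varies like the others. For E2f7 and each of the 4 named genes, the Gfi1-floxed arrays lay further apart than the WT arrays. The calls and the adjusted p of E2f7 therefore cannot decide whether the labels differ, and no conclusion is drawn from them. The differences restate the gap between the Gfi1-floxed arrays. The sign of the median label difference thus turned with the Gfi1-floxed array that was left out.

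**Figure D5:**
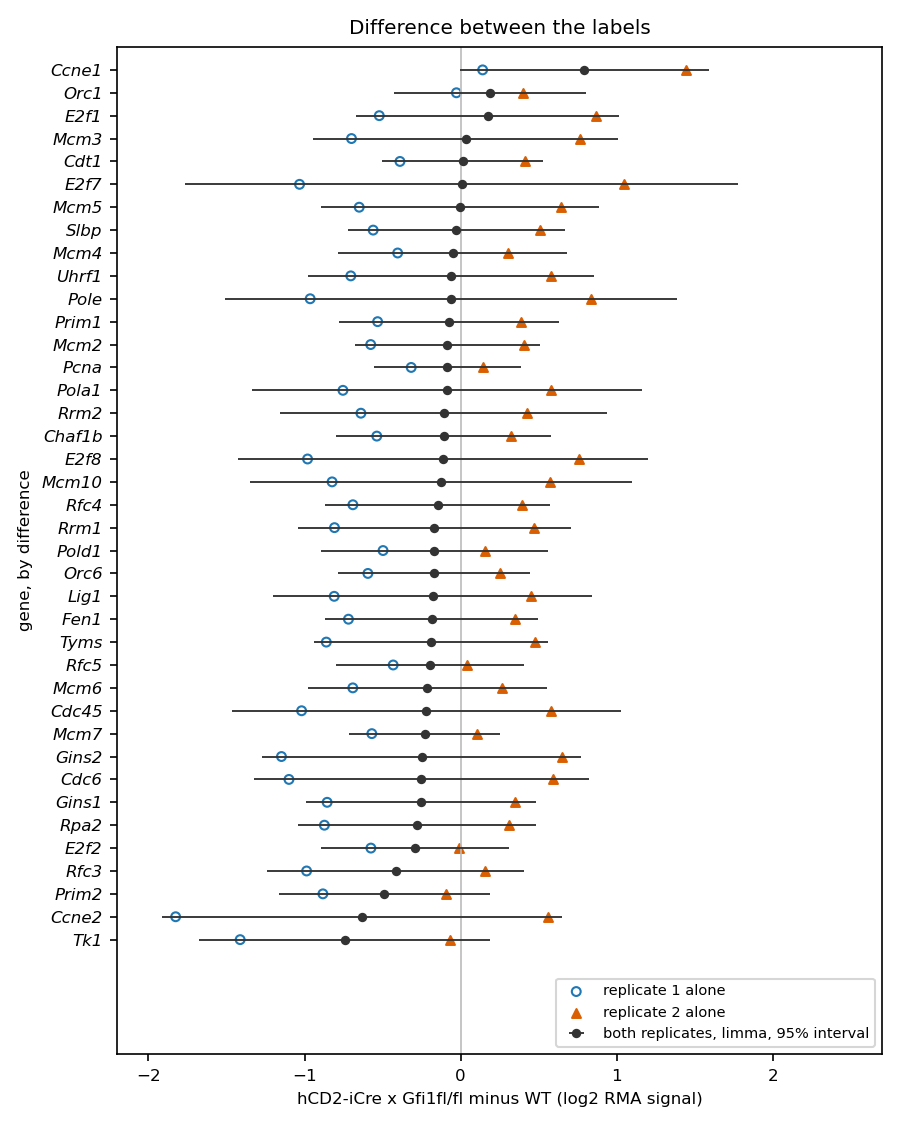
Difference between Gfi1-floxed and WT in log2 RMA signal (horizontal axis) for the 39 members, as the limma estimate with its 95% interval (black) and for replicate 1 alone (blue circles) and replicate 2 alone (orange triangles). All intervals include 0, with replicate 1 mostly to the left and replicate 2 mostly to the right of it. Replicate numbers are not stated to pair arrays.

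Other lists were examined for genes that moved with the gap between the Gfi1-floxed arrays. Double-positive thymocyte markers had a median difference of -0.06 within that label, none by 2-fold, and a range of -0.41 (Cd3d) to 0.10 (Bcl11b). Dntt, the terminal transferase of receptor rearrangement, was the only marker called between labels, lower on the Gfi1-floxed arrays (limma, difference -0.69, adjusted p = 0.0413). Of 16 measured genes of thymocyte blasts and the pre-T cell receptor stage, the median was 0.05 and Dtx1, a Notch target, was the only gene 2-fold higher, at 5.88 and 5.05 on the WT arrays and 5.69 and 7.27 on the Gfi1-floxed arrays. Notch3, Slc7a5 and Myc were higher by 0.85, 0.77 and 0.67. Ptcra, the pre-T alpha chain, and Slc3a2 differed by -0.69 and -0.54. Of the 16 genes, 9 were higher on Gfi1-floxed replicate 2. Cd44, an adhesion receptor of early thymocytes, was called between labels at -3.16 (limma, adjusted p = 0.00151), with 3.57 and 3.60 on the Gfi1-floxed arrays, which did not differ as the members did. The part of these genes in the gap was not tested.

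Among 8 measured erythroid markers, Hba-a1, an alpha globin gene, was higher on replicate 2 under both labels, at 7.35 and 10.17 on the WT arrays and 8.72 and 10.45 on the Gfi1-floxed arrays. The mean of the list was 5.17 and 5.33 on the WT arrays and 5.15 and 5.30 on the Gfi1-floxed arrays. Car2, a carbonic anhydrase and another bright marker of the list, went the other way under both labels, at 8.51 and 7.66 on the WT arrays and 6.74 and 5.69 on the Gfi1-floxed arrays. Alas2, Epor, Klf1 and Slc4a1 were dim, between 2.73 and 3.74 on all 4 arrays. The array medians were 3.53 to 3.55 and the lower quartiles 2.97 to 3.02. The globin difference was 2.82 within the WT label and 1.73 within the Gfi1-floxed label, and its part in the gap was not tested. Markers of B cells, of myeloid and dendritic cells, of gamma-delta, NK and innate lymphoid cells and of thymic epithelium and stroma had medians between -0.10 and 0.16 within the Gfi1-floxed label, and none of these genes was 2-fold higher on replicate 2. Cd79b, a B cell receptor subunit, was over 2-fold lower there, at 7.41 and 6.28, and Epcam, an epithelial adhesion protein, differed by -0.94, at 8.63 and 7.69. Their part in the gap was not tested. Cd163l1, a gamma-delta T cell gene, was called higher on the Gfi1-floxed arrays, at 10.995 and 10.99 against 3.15 and 3.94 (limma, adjusted p = 0.000196).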

How the data were processed

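Per the labels' protocols, biotinylated cRNA was made from RNA of the sorted thymocytes and read on 3' expression arrays. The submitters' processing notes list RMA and version 1.1 of Affymetrix Expression Console. The deposited log2 values were read as RMA signals because they span 2.19 to 13.5 with nearly equal quartiles on the 4 arrays, and they were used without further normalisation. Detection calls and the position of probes were not used here.

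Of 45037 probe sets, 28898 carried exactly 1 gene symbol in the platform annotation, for 17097 genes. Where a gene had several, the brightest by mean signal stood for it. Labels were compared over all genes with lmFit and eBayes of limma 3.58.1 (R 4.3.3), with an intensity trend and no covariate, two-sided, with Benjamini-Hochberg adjustment at 0.05. The fit was tested on simulated data with 4-fold changes. The simulated errors were independent between genes and equally wide under both labels. That test therefore does not cover a gap that many genes share within 1 label, as the members do here. Replicates within a label were compared as differences, with a limit of 2-fold and no test. Named genes were, per role, up to 4 members with the largest and the member with the smallest Gfi1-floxed replicate difference, and the 3 with the largest label difference in each direction; from the other lists, called genes and up to 4 with the largest such replicate difference. Other genes named (further members, low or marker genes) were chosen after their values were seen. The members, the 10 other gene lists and the motifs were chosen with earlier results of these data known. Alternatives were scaling, filters on dim genes, the choice of probe set, the prior, the fold limit, a replicate block and leaving out each array. Figures used matplotlib 3.10.9 in Python 3.11.15.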

Additional observations from a re-analysis of the deposited data

How the results depend on the processing

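Over median centring, a second quantile normalisation and removal of the dimmest 30% or 50% of genes, the 6 results kept their value or direction: 0 members called between labels, and 17 members at least 2-fold higher on Gfi1-floxed replicate 2. The prior without trend and the robust prior also called 0 members, of 138 and 233 genes called in all. The ordinary t statistic called 0 of all genes (1219 had an unadjusted p under 0.05), so its 0 members says nothing about stability. With the probe set of largest spread per gene, 22 members were at least 2-fold higher on Gfi1-floxed replicate 2, and the median difference within that label was 1.17. Spread was taken over the same 4 arrays, so this choice favours a wider gap and cannot check its size. The median within the WT label was 0.0740 with that choice and 0.0416 with the mean of all probe sets, so its sign is not settled. With a limit of 1.5-fold, 34 members were higher on Gfi1-floxed replicate 2. Leaving out 1 array at a time gave 0 to 4 members called and a median label difference of -0.66 to 0.33, which was 0.33 without Gfi1-floxed replicate 1. The genes called in all numbered 105 and 103 without WT replicates 1 and 2, and 475 and 467 without Gfi1-floxed replicates 1 and 2. Each fit without 1 array leaves a lone array under 1 label and takes residual spread from the other label alone. No conclusion is therefore drawn from the calls of those fits. With a replicate block the fit called 0 members, with a median of -0.15, and 183 genes in all against 190. The labels do not say that a number pairs arrays, and the replicate differences of the labels correlated with r = 0.30 over all genes. The number of arrays, and signals near background for dim probe sets, limit what these data can show.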
